A study of Mus musculus with 49 samples.

Results

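The cytosolic and mitochondrial heat shock chaperones were followed across the hippocampi of 49 mice. The set holds 10 genes: Hsp90aa1, Hsp90ab1, Hspa8, Hspa4l, Hsph1, Dnaja1, Dnajb1, Hspd1, Hspe1 and Ptges3. A row of the deposited FPKM table (fragments mapped to a transcript, scaled by its length and by the library's total) was taken as a member when its identifier named one of these genes, and the row with the highest mean was kept where a symbol stood on several. That gave 10 of the 42521 rows of the table, and all 10 passed the filter on low values, a mean of at least 0.5 FPKM, which 16029 rows passed. The genes were chosen with earlier results of these data known, namely lower chaperone values in group CD-F than in group CD-C, so every value of a member set against CD-C is given as a description without a test.

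The mice were C57BLKS/J animals of 3 months, and the study's title concerns maternal obesity and a high-fiber diet. The groups were coded HFD-F (8 mice), CD-F (8), FFD-C (8), FD-C (8), HFD-C (9) and CD-C (8). No label explains these codes. Their first part was taken to name what the dam ate and their last letter what the offspring ate. 4 libraries of each group carried an XX mark in their titles, the others an XY mark. The titles open with 20 different prefixes, such as HFD2.2, which may stand for litters, although no label says so. Library depth is unknown because the table holds no read counts. Pyramidal, granule cell and other hippocampal markers were present, at uneven levels. Of the granule markers, C1ql2 ran from 0.368 to 127 FPKM over the libraries and Lct from 0.782 to 70.9 FPKM. Calb1 ran from 41.8 to 120 FPKM. Summed choroid plexus markers ran from 23.4 to 11044 FPKM in HFD-F, 25.1 to 4907 FPKM in HFD-C, 39.8 to 19533 FPKM in CD-F and 46.3 to 13963 FPKM in CD-C. Alb, which encodes the liver protein albumin, reached at least 1 FPKM in 4 CD-C libraries and in no library of another group.

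Heat shock proteins are molecular chaperones that bind unfolded or partly folded proteins and help them reach or keep their shape. In the cytosol, J-domain proteins (Dnaja1, Dnajb1) hand clients to HSP70 (Hspa8 is its constitutive form), HSP110 proteins (Hsph1, Hspa4l) exchange the nucleotide of HSP70, and clients pass on to HSP90, whose inducible and constitutive forms are Hsp90aa1 and Hsp90ab1. Ptges3, also called p23, is a co-chaperone that holds HSP90 in its closed, client-bound state. Hspd1 (HSP60) and its lid Hspe1 (HSP10) fold proteins in the mitochondrial matrix. Many of these genes are under heat shock factor 1, which binds repeats of a short unit, nGAAn, in alternating orientation.

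The start regions of the members are shown because many of the genes share this known regulator and their values correlated over the libraries. RefSeq start windows of 300 bases, reaching 250 bases before and 50 after the start (GRCm38.p6), were on hand for 7 of the 10 members. They were searched for GAANNTTC and TTCNNGAA, each made of 2 units. Both motifs read the same on the other strand, and overlapping matches were counted. In the lines that follow, capitals mark the matches. Hspd1 and Hspe1 lie head to head on chromosome 1, and all 215 bases between their RefSeq starts are printed (chr1:55087933-55088147, plus strand). The 250 bases before the start of Hsph1 (chr5:149636316-149636565, minus strand), of Dnaja1 (chr4:40722218-40722467, plus strand) and of Ptges3 (chr10:128058732-128058981, plus strand) are printed beneath.
Hspe1: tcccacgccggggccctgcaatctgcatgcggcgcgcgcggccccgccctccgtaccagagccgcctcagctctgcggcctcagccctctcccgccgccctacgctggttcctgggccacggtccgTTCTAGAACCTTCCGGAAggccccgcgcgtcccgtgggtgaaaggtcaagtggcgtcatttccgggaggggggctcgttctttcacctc
Hsph1: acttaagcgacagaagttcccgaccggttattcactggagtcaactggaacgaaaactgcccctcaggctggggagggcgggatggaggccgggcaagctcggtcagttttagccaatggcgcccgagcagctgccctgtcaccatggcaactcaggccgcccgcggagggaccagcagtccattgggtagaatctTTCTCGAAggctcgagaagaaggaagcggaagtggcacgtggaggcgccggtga
Dnaja1: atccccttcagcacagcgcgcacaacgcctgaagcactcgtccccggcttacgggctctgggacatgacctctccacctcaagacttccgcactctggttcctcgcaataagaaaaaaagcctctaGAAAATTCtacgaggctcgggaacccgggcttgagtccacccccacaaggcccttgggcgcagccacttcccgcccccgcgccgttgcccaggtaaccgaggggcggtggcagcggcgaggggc
Ptges3: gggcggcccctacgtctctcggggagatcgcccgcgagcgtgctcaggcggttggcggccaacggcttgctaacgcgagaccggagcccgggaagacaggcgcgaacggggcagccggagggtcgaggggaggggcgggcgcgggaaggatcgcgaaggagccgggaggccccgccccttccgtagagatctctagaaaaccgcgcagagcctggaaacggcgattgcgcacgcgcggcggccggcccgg
In the stretch shared by Hspd1 and Hspe1, a run of 3 overlapping 2-unit matches spanned positions -89 to -72 from the start of Hspe1 and -144 to -127 from one start of Hspd1. Hsph1 held a match at -54 to -47, plus a 3-unit element at 16 to 28 after the start, beyond the printed bases. Dnaja1 held a single match at -124 to -117 of 1 of its 3 windows. No match was found in the windows of Ptges3, Hspa4l and Dnajb1, which says only that these letters are not there. Counted by window, a 2-unit match was held by 5 of the 12 member windows and by 4946 of all 32851 RefSeq windows of that length (15.1%). A 3-unit match was held by 4 member windows and by 198 of all windows (0.603%). These counts are not independent, since the windows of Hspd1 and Hspe1 share 1 stretch and those of Hsph1 overlap. These matches describe the letters and do not show binding.

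Among the cytosolic chaperones, Hsp90ab1 had the highest level per length, 683 FPKM on average over the 49 libraries, and Hsp90aa1 followed with 310.0 FPKM. Hsph1 averaged 169 FPKM, Dnaja1 145 FPKM and Dnajb1 140 FPKM. Ptges3 stood at 84.9 FPKM, Hspa8 at 68.9 FPKM and Hspa4l at 67.2 FPKM. Of the mitochondrial pair, Hspd1 averaged 85.3 FPKM and Hspe1 12.3 FPKM. Their spread differed: the highest library had 3.11 times the lowest for Hsp90aa1 but 1.67 times for Hsp90ab1. Processed copies of several of these genes stand on rows of their own, so levels are uncertain as far as reads were shared with such copies.

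**Figure D1:**
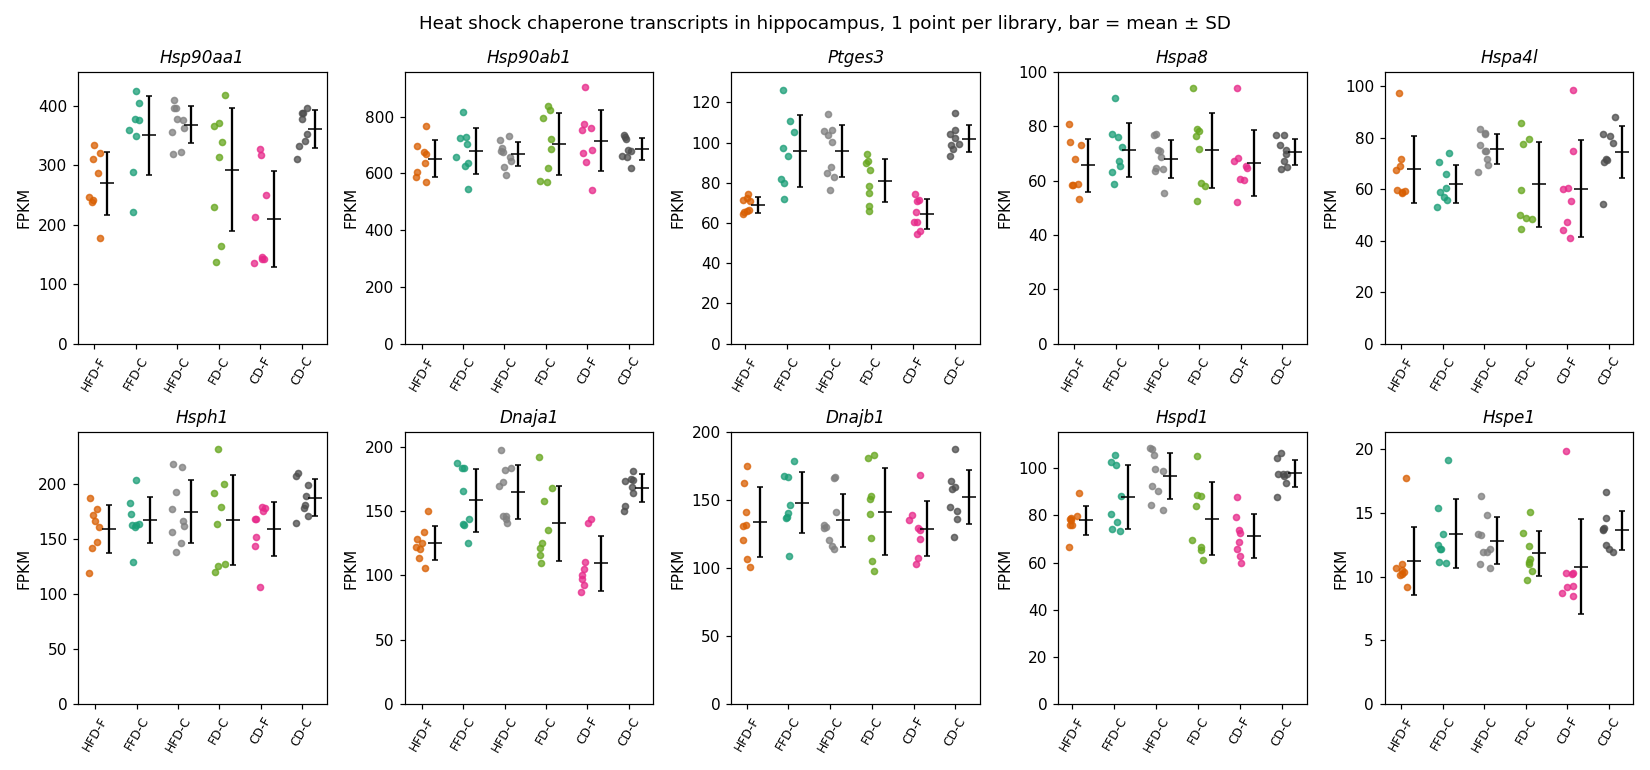
FPKM of the 10 chaperone genes in each of the 49 libraries, by group. Points are libraries and bars are group means with SD. Ptges3 shows no overlap between HFD-F and HFD-C, while Hsp90ab1 has similar means in all 6 groups.

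All 10 members had their lowest group mean in CD-F or HFD-F, and 8 of 10 had their highest in CD-C or HFD-C. The genes were chosen with lower values in CD-F than in CD-C known, so these counts are no independent evidence. No share over all rows is set beside them. For Dnaja1 and Hspd1 the order of means, high to low, was CD-C, HFD-C, FFD-C, FD-C, HFD-F and CD-F. For Ptges3 and Hspe1 it was CD-C, FFD-C, HFD-C, FD-C, HFD-F and CD-F. Hsp90aa1 had HFD-C first and CD-C second, and then the same order. Hsp90ab1 stood apart, with its highest mean in CD-F (716 ± 107 FPKM) and its lowest in HFD-F (651 ± 65.4 FPKM). Neighbours in these orders mostly did not differ beyond their spread. Of 50 neighbouring pairs of group means, 2 lay apart by more than the larger of their SDs, and both belong to Ptges3 (HFD-C above FD-C, and FD-C above HFD-F).

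Offspring diet F against C was first compared within the HFD-coded dams, in 8 HFD-F and 9 HFD-C mice. Lower values were found for Ptges3, the HSP90 co-chaperone, and Dnaja1, a J-domain partner of HSP70. All 10 members had a lower fitted value in HFD-F, where 49.9% of all rows did. Adjusted p-values are from limma's moderated test on log2(FPKM + 0.5) with Benjamini-Hochberg adjustment over all 16029 rows, and a row was called at an adjusted p under 0.05. Of the 10 members, 2 were called lower, against 210 of all rows (1.31%). None was called higher, against 58 rows (0.362%). The median difference of the members was -0.19 (log2), against 0.00 for all rows tested. Since the genes were chosen with earlier results of these data known, the counts are no independent evidence of their direction. In whole hippocampus, fewer cells of a type and less RNA per cell cannot be told apart.

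For Ptges3 the HFD-F libraries ran from 64.4 to 74.6 FPKM with a median of 68.7 FPKM, and the HFD-C libraries from 76.3 to 114 FPKM with a median of 100.1 FPKM. Every HFD-F library was thus below every HFD-C library. The same held, in the lower direction, for 60 of the 16029 rows (0.374%). The means were 68.9 ± 3.80 FPKM in HFD-F and 95.8 ± 13.1 FPKM in HFD-C (SD, n = 8 and 9). The difference was -0.47 (log2, SE 0.0863, adjusted p = 0.00552), a ratio of 0.724. It remained called in each of the 17 fits that left out 1 library of either group, with an adjusted p of at most 0.0179. Of 13 other settings it was called in 9. The call was lost with means per title prefix and in the GC settings, all described further on.

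For Dnaja1 the HFD-F libraries ran from 106 to 150.1 FPKM (median 123), and the HFD-C libraries from 141 to 198 FPKM (median 169). The ranges overlapped between 141 and 150.1 FPKM, and all 8 HFD-F libraries were below the HFD-C mean. The difference was -0.40 (log2, SE 0.101, adjusted p = 0.0312), with 125 ± 13.3 FPKM in HFD-F and 165 ± 20.9 FPKM in HFD-C. Fewer libraries could be spared here than for Ptges3: the call was kept in 7 of the 17 fits without 1 library and lost in the other fits, without HFD-C replicate 1, 2, 4, 6 or 9 or HFD-F replicate 3, 4, 5, 6 or 7, with adjusted p-values up to 0.0861.

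For Hspd1, the mitochondrial HSP60, the HFD-F libraries ran from 66.4 to 89.4 FPKM (median 78.3) and the HFD-C libraries from 82.3 to 108 FPKM (median 98.9). All 8 HFD-F libraries were below the HFD-C mean, and the difference of -0.31 (log2, SE 0.0895) missed the threshold with an adjusted p of 0.0582. It was called without HFD-C replicate 7 (adjusted p = 0.0436) and without HFD-F replicate 2 (adjusted p = 0.0377). Its partner Hspe1 differed by -0.20 (log2, SE 0.123, adjusted p = 0.438), with 11.2 ± 2.69 FPKM in HFD-F and 12.8 ± 1.83 FPKM in HFD-C.

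The inducible HSP90 gene, Hsp90aa1, ran from 178 to 334 FPKM (median 267) in HFD-F and from 319.7 to 410.1 FPKM (median 376) in HFD-C. Its difference of -0.48 (log2, SE 0.169) was as large as that of Ptges3 but did not pass (adjusted p = 0.122), and its HFD-F libraries were widely spread. The constitutive gene, Hsp90ab1, had 651 ± 65.4 FPKM in HFD-F and 668 ± 43.6 FPKM in HFD-C, a difference of -0.04 (log2, SE 0.0811, adjusted p = 0.869). The ratio of Hsp90aa1 to Hsp90ab1 within a library averaged 0.422 ± 0.112 in HFD-F and 0.552 ± 0.0321 in HFD-C. Of the remaining genes, Hspa4l (-0.18), Hsph1 (-0.14), Hspa8 (-0.06) and Dnajb1 (-0.03, all log2) did not pass, with adjusted p-values between 0.537 and 0.935.

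**Figure D2:**
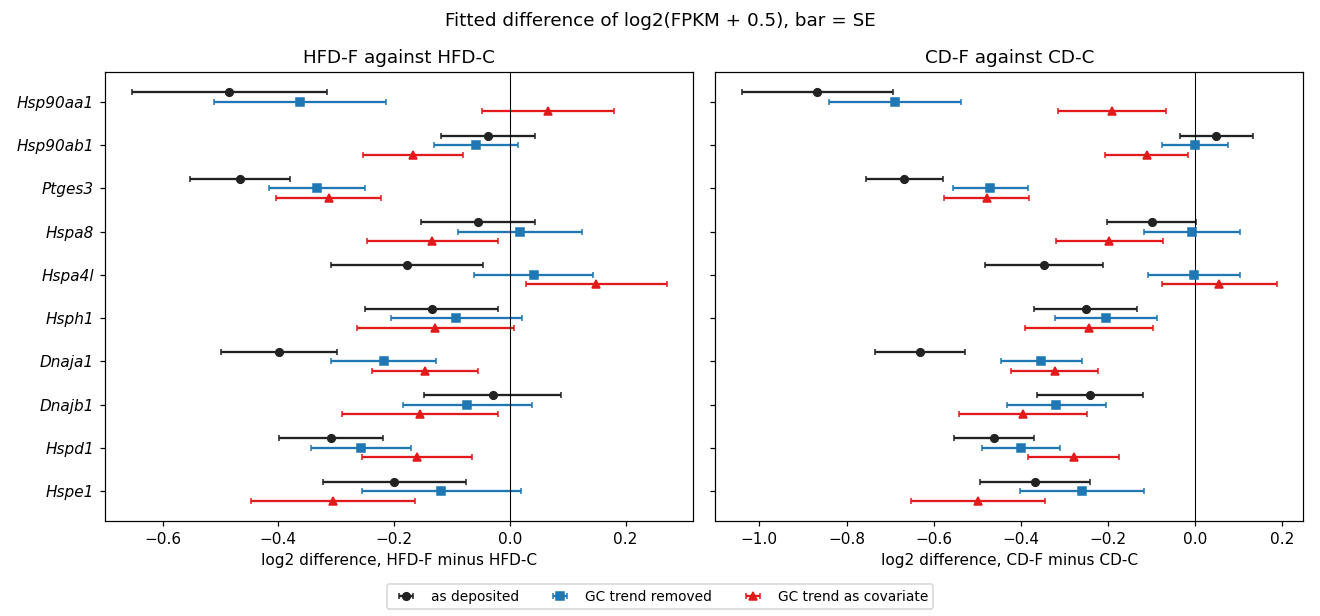
Log2 differences of the 10 genes (x axis) with their SE as bars, HFD-F against HFD-C on the left and CD-F against CD-C on the right. Black points are from the values as deposited, blue ones after each library's GC trend was removed and red ones with that trend as a term of the model. Ptges3 lies at -0.47 in the HFD-coded arm, and at -0.33 with the GC trend removed.

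3 title prefixes occurred in both groups of the HFD-coded arm, each with 1 HFD-C library. For Ptges3, the 2 HFD-F libraries of prefix HFD2.2 had 71.2 and 74.6 FPKM, against 87.6 FPKM in the HFD-C library. Under HFD2.5, HFD-F had 65.3 and 72.4 FPKM, against 76.3 FPKM in HFD-C. Under HFD3.2, the 4 HFD-F libraries had 64.4 to 70.7 FPKM, against 83.0 FPKM in HFD-C. All 8 HFD-F libraries were therefore below the HFD-C library of their own prefix, for Ptges3 and likewise for Hspd1. For Dnaja1, Hsp90aa1 and Hspe1 this held for 7 of 8. The remaining members were mixed. Under HFD2.2, HFD2.5 and HFD3.2, HFD-F differed from HFD-C by 0.14, 0.43 and -0.08 (log2) for Dnajb1. In the same order, Hspa8 had -0.03, 0.41 and -0.15, Hsp90ab1 -0.06, 0.09 and -0.01, and Hsph1 -0.19, 0.10 and 0.04. Hspa4l had 0.33, -0.17 and -0.41. Hspe1, lower under each of these prefixes, had -0.16, -0.02 and -0.49. The share of all rows that were lower within prefixes is not given here. The marks differ within every shared prefix: HFD2.2 and HFD2.5 have XY in HFD-F and XX in HFD-C, and HFD3.2 has XX in HFD-F and XY in HFD-C. Within a prefix, the diet code and the mark therefore cannot be told apart. When the 23 means per prefix and group replaced the libraries, no row of the table was called in HFD-F against HFD-C, the members included, with Ptges3 at an adjusted p of 0.230.

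**Figure D3:**
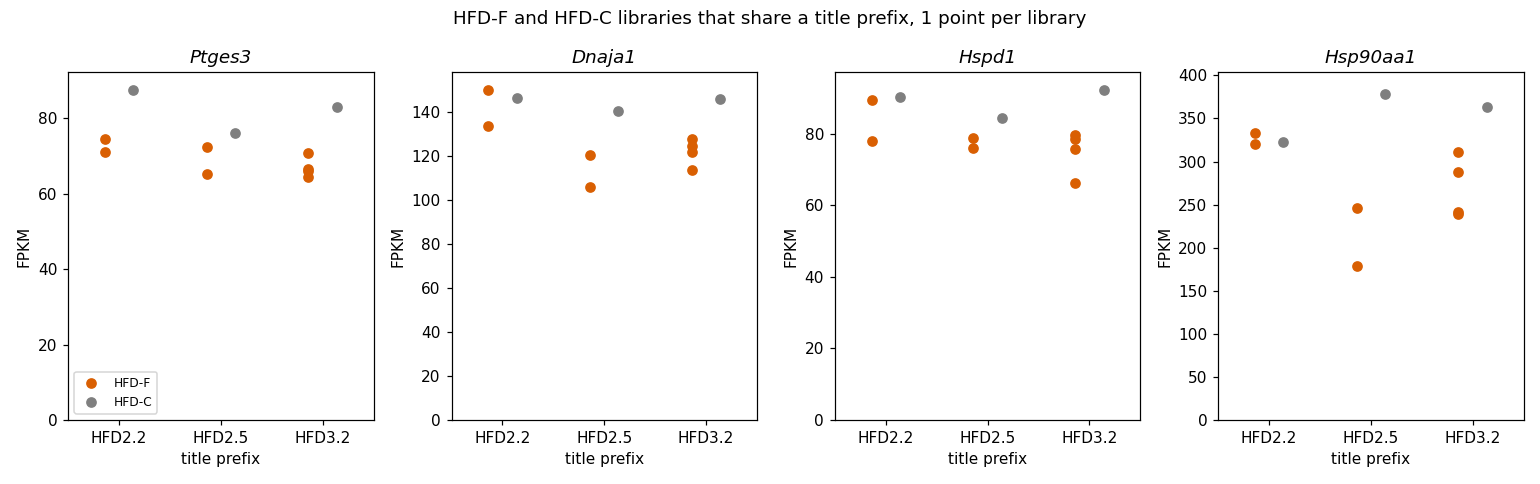
FPKM of Ptges3, Dnaja1, Hspd1 and Hsp90aa1 in the HFD-F libraries beside the single HFD-C library with the same title prefix. For Ptges3 and Hspd1 all 8 HFD-F points lie below the HFD-C point of their prefix. Within each prefix the HFD-F and HFD-C libraries also differ in their XX or XY mark.

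The same offspring contrast in the CD-coded dams, CD-F against CD-C, is the one that led to the choice of these genes. It is described here without a test. Differences ran from -0.87 (log2, SE 0.173) for Hsp90aa1 to 0.05 (SE 0.0834) for Hsp90ab1, with a median of -0.36, against 0.02 for all rows. Ptges3 differed by -0.67 (SE 0.0887), Dnaja1 by -0.63 (SE 0.104), Hspd1 by -0.46 (SE 0.0921) and Hspe1 by -0.37 (SE 0.127), all on the log2 scale. Smaller differences were those of Hspa4l (-0.35), Hsph1 (-0.25), Dnajb1 (-0.24) and Hspa8 (-0.10). In this fit 5 members lay past the threshold on the lower side, where 1423 rows did (8.88%). Since the genes were chosen on this contrast, a count above the share of all rows is no evidence about them. None did on the higher side, where 728 rows did (4.54%). With the GC trend of the libraries (introduced further on) as a model term 1 member lay past it, and with GC and length trends 0, where Hsp90aa1 stood at 0.0013 (log2). Both settings were chosen after seeing the data.

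Hsp90aa1 ran from 137 to 328 FPKM (median 180.1) in CD-F, and from 310.4 to 397 FPKM (median 366) in CD-C. The CD-F values were 143 to 147 FPKM under prefix CD1.5, 137 to 317 FPKM under CD2.5X and 143 to 328 FPKM under CD2.6, so low and high values occurred together under the last pair of prefixes. Ptges3 ran from 54.5 to 74.5 FPKM (median 62.9) in CD-F and from 93.3 to 115 FPKM (median 101) in CD-C. Ptges3, Dnaja1 and Hspd1 had ranges that did not overlap, as 201 rows did in the lower direction (1.25%). This too is a description, since the genes were chosen on this contrast. For Hspd1 the gap was narrow, with 87.89 FPKM in the highest CD-F library and 87.90 FPKM in the lowest CD-C library. The ratio of Hsp90aa1 to Hsp90ab1 averaged 0.308 ± 0.145 in CD-F and 0.528 ± 0.0575 in CD-C.

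Set side by side, the differences were smaller in the HFD-coded arm for most members. HFD-F minus HFD-C less CD-F minus CD-C came to 0.38 (log2, SE 0.242) for Hsp90aa1, 0.23 (SE 0.145) for Dnaja1, 0.20 (SE 0.124) for Ptges3 and -0.09 for Hsp90ab1. The 95% intervals of all 10 included 0. Because the genes were chosen on the CD-coded contrast, smaller differences in the other arm could follow from that choice alone. These values are a description and no test of a difference between the arms.

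Among mice on offspring diet C, the dam codes FFD, HFD and FD were compared next. FFD-C against HFD-C had no called member and no called row (0%), with 956 rows at an unadjusted p under 0.05, among them 1 member. That member was Hspa4l, an HSP110-type exchange factor. It had 62.0 ± 7.42 FPKM in FFD-C and 75.7 ± 5.81 FPKM in HFD-C, a difference of -0.30 (log2, SE 0.132, limma adjusted p = 0.761), and 8 of 8 FFD-C libraries were below the HFD-C mean. Adding a second row that names Hspa4l, described further on, turned this difference to 0.24 (log2). Ptges3 differed by -0.01 and Hsp90aa1 by -0.11 (log2).

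FFD-C against FD-C had no called member, with 1 at an unadjusted p under 0.05, and 1 called row (0.00624%), with 911 at an unadjusted p under 0.05. The largest differences were those of Hsp90aa1, 0.33 (log2, SE 0.173, adjusted p = 0.896), and Ptges3, 0.23 (log2, SE 0.0887, adjusted p = 0.831). Ptges3 ran from 72.1 to 126 FPKM (median 95.5) in FFD-C and from 65.9 to 94.2 FPKM (median 82.4) in FD-C. Hsp90aa1 ran from 221 to 425 FPKM (median 368) in FFD-C and from 137 to 418 FPKM (median 327) in FD-C. In both genes the groups overlapped. The median difference of the members was 0.12, against 0.00 for all rows.

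Against CD-C, the other dam codes are again described only. The median difference of the members was -0.05 (log2) in HFD-C, -0.24 in FD-C and -0.08 in FFD-C. The lowest values in FD-C were those of Hsp90aa1 (-0.39), Ptges3 (-0.34) and Hspd1 (-0.33). In these comparisons limma called no row in HFD-C (0%, with 379 at an unadjusted p under 0.05), 32 rows in FD-C (0.200%) and 1 row in FFD-C (0.00624%), with no member among them, except that 1 member lay past the threshold in FD-C without FD-C replicate 5. Over the alternatives tried, the count moved between 0 and 26 in HFD-C (26 with no filter), between 0 and 78 in FD-C and between 0 and 7 in FFD-C. Without CD-C replicate 1, 3, 4 or 6 it was 5 in HFD-C and 6 or 7 in FFD-C.

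Libraries marked XX were compared with those marked XY across all groups. No member was called and 1 had an unadjusted p under 0.05, where 18 rows were called (0.112%). Hsp90aa1 differed most, by 0.25 (log2, SE 0.0992, adjusted p = 0.536), with 18 of 24 XX libraries above the XY mean. The median difference of the members was 0.05, against -0.01 for all rows.

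Libraries also differed in how their values followed base composition, and this moved with the diet groups. For each library, Spearman's rho was taken between transcript GC and the deviation of each row from its mean, over the 13797 tested rows with a known transcript (86.1%). A higher value means that GC-rich transcripts read higher in that library. The value averaged 0.034 ± 0.169 in HFD-F and -0.290 ± 0.0784 in HFD-C, and 0.210 ± 0.279 in CD-F and -0.195 ± 0.0886 in CD-C. It averaged -0.072 ± 0.198 in FFD-C and 0.087 ± 0.194 in FD-C. The 4 CD-F libraries with Hsp90aa1 at 137 to 147 FPKM were also the 4 of their group with the highest GC trends, 0.38 to 0.52.

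Hsp90aa1, with a transcript GC of 43.7%, followed this trend most closely by Pearson's r: over 49 libraries r was -0.883 and Spearman's rho -0.719 (permutation p = 1e-05 each, the smallest that 100000 permutations can give, and 2e-05 after Benjamini-Hochberg adjustment over the 10 members). Without the 2 libraries farthest from the median trend r was -0.853, and within single groups it ran from -0.982 to -0.241. For Dnaja1 (GC 41.2%) r was -0.793 and rho -0.753 (permutation p = 1e-05 each, adjusted 2e-05), with -0.744 without 2 libraries and -0.854 to -0.485 within groups. For Ptges3 (GC 43.3%) r was -0.707 and rho -0.696 (permutation p = 1e-05 each, adjusted 2e-05), with -0.659 without 2 libraries and -0.768 to -0.183 within groups. Hspd1 and Hspa4l also had r = -0.707 (permutation p = 1e-05 each, adjusted 2e-05), with -0.661 for Hspd1 and -0.694 for Hspa4l without 2 libraries. Within groups r ran from -0.819 to -0.0494 for Hspd1 and from -0.845 to 0.0192 for Hspa4l. Hsp90ab1 (GC 51.0%) went the other way by Pearson's r, 0.386 (permutation p = 0.00581, adjusted 0.00968), while rho was 0.236 (permutation p = 0.102, adjusted 0.127), and r was 0.329 without 2 libraries. For Hsph1, Hspe1, Hspa8 and Dnajb1 r was -0.234, -0.155, 0.0917 and 0.0278, with adjusted permutation p-values from 0.149 to 0.847. Their rho was -0.337 (adjusted permutation p = 0.0306), -0.297 (0.0552), 0.0258 (0.957) and 0.00051 (0.997). The shuffles crossed the groups, whose trends differ, and took in CD-F and CD-C, on which the genes were chosen. These p-values are therefore no independent evidence about the members. On residuals of the model r was -0.824 for Hsp90aa1, -0.642 for Dnaja1, -0.631 for Hspa4l, -0.461 for Ptges3 and -0.43 for Hspd1. It was 0.417 for Hsp90ab1, 0.27 for Dnajb1, 0.221 for Hspe1, 0.205 for Hspa8 and -0.0138 for Hsph1.

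**Figure D4:**
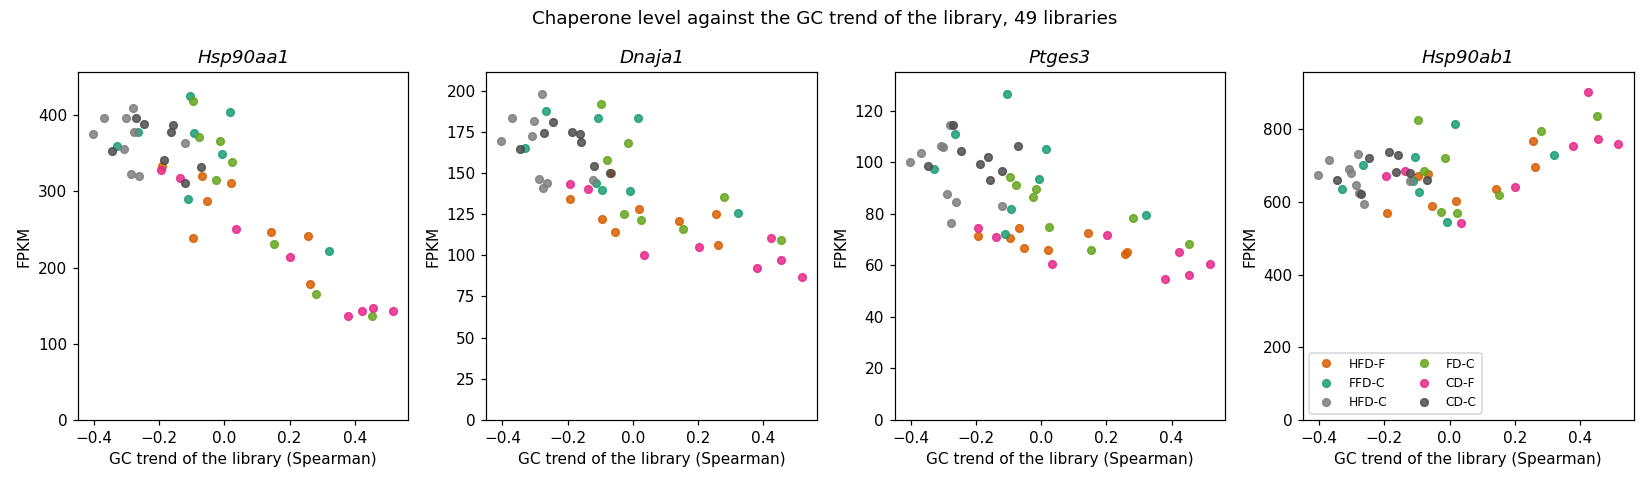
FPKM of Hsp90aa1, Dnaja1, Ptges3 and Hsp90ab1 against the GC trend of each of the 49 libraries (Spearman's rho, no unit), coloured by group. Hsp90aa1 falls to 137 FPKM at the high end of the trend, where 4 CD-F libraries and 1 FD-C library lie.

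Once each library's GC trend had been removed, Ptges3 was lower by -0.33 (log2, SE 0.0831) in HFD-F against HFD-C and no longer called (adjusted p = 0.0788). Dnaja1 then differed by -0.22 (SE 0.0911, adjusted p = 0.318), Hspd1 by -0.26 (SE 0.0868, adjusted p = 0.185) and Hsp90aa1 by -0.36 (SE 0.148, adjusted p = 0.307), all log2. With the trend as a term of the model, a choice made after seeing the data, Ptges3 stood at -0.31 (adjusted p = 0.255) and Hsp90aa1 at 0.07 (adjusted p = 0.886). In CD-F against CD-C, removing the trend left Hsp90aa1 at -0.69 (SE 0.152), Ptges3 at -0.47 (SE 0.0855), Hspd1 at -0.40 (SE 0.0893), Dnaja1 at -0.35 (SE 0.0936) and Hspa4l at 0.00, all log2. As a term of the model it left Hsp90aa1 at -0.19 (SE 0.124) and Ptges3 at -0.48 (SE 0.0981). The part of the GC trend in the lower chaperone values was not tested beyond these values.

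After group and XX or XY mark were taken out, the members' values were correlated over the 49 libraries in all 45 pairs. Dnaja1 and Hspd1, a cytosolic and a mitochondrial gene, were closest (Pearson's r = 0.899, Spearman's rho = 0.899, permutation p = 1e-05 each, 3.46e-05 for r and 2.81e-05 for rho after adjustment over the pairs, and r = 0.874 without the 2 farthest libraries). Their r was 0.901 with the GC trend removed. Hsp90ab1 and Hspa8, the constitutive HSP90 and HSP70 genes, followed with r = 0.814 and rho = 0.768 (permutation p = 1e-05 each, adjusted 3.46e-05 and 2.81e-05), 0.795 without 2 libraries and 0.839 with the GC trend removed. Hsp90aa1 and Dnaja1 had r = 0.717 and rho = 0.702 (permutation p = 1e-05 each, adjusted 3.46e-05 and 2.81e-05) and 0.656 without 2 libraries, but 0.405 with the GC trend removed. The pair of cytosolic HSP90 genes ran against each other, with r = -0.337 and rho = -0.293 (permutation p = 0.0173 and adjusted 0.0244 for r, 0.0405 and 0.0552 for rho) and -0.262 without 2 libraries, and with the GC trend removed r was -0.0651. Hspd1 and Hspe1, which share a start region, had r = 0.470 (permutation p = 0.00043, adjusted 0.000841) and rho = 0.638 (permutation p = 1e-05, adjusted 2.81e-05), with r = 0.441 without 2 libraries.

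**Figure D5:**
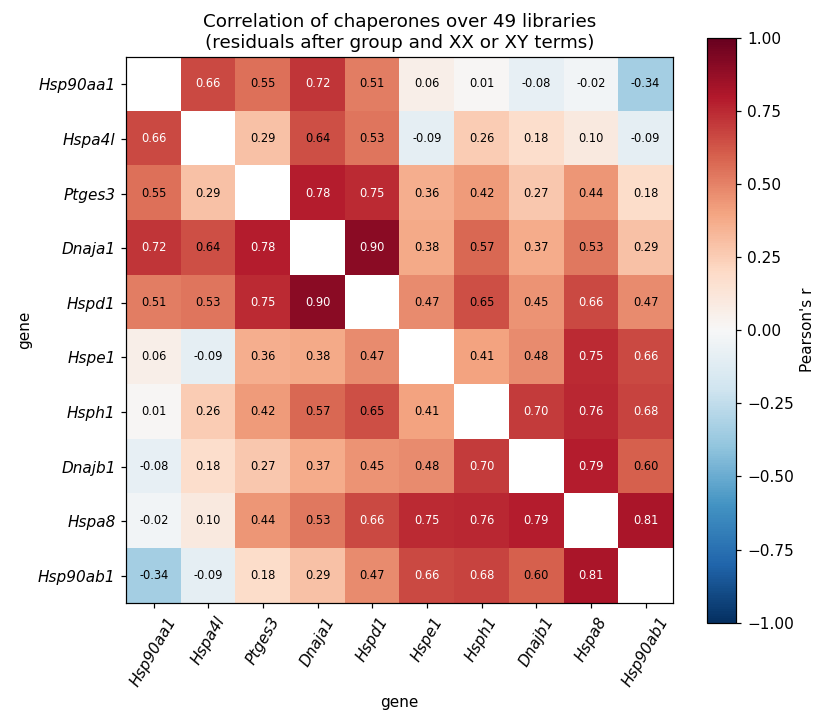
Pearson's r between the 10 genes over 49 libraries after group and XX or XY mark were taken out. Hsp90aa1, Dnaja1, Hspd1, Ptges3 and Hspa4l correlate with each other at 0.292 to 0.899, and Hsp90aa1 with Hsp90ab1 at -0.337.

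Seen after the values, the genes could be laid out as 2 sets of 5. Hsp90aa1, Dnaja1, Hspd1, Ptges3 and Hspa4l had a median r of 0.651 over their 10 pairs, with a range of 0.292 to 0.899. Hsp90ab1, Hspa8, Hsph1, Dnajb1 and Hspe1 had a median of 0.690, with a range of 0.406 to 0.814. The 25 pairs between the sets had a median of 0.294 and ran from -0.337 to 0.664. No test was made of this layout, since it was chosen on the same values.

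The rows most like the members were found by Pearson's r over the 49 libraries, after group and XX or XY mark were taken out, between the members' mean standardized profile and each row with 1 gene symbol and a mean of at least 1 FPKM. Cct4, a subunit of the cytosolic chaperonin TRiC, came first (r = 0.881), and Cct8, another subunit, also stood among the first 10 (r = 0.831). Dnaja2, a J-domain protein close to Dnaja1, had r = 0.806. In HFD-F against HFD-C, Cct8 was lower by -0.36 (log2, limma adjusted p = 0.0373) and Dnaja2 by -0.26 (adjusted p = 0.0386), while Cct4 did not pass (-0.24, adjusted p = 0.154). Eif2s1, a subunit of the translation initiation factor eIF2 (r = 0.847), had -0.31 and an adjusted p of 0.0577. The other rows of the first 10 were Ube2n, Gskip, Atg5, Chmp2b, Mkks and Ociad1, with r between 0.803 and 0.837.

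Further chaperone, clock, proteasome and stress genes were read from fixed lists. Of their 181 genes, 176 were tested. In HFD-F against HFD-C none was called higher, against 0.362% of all rows, and 6 were called lower, against 1.31%: Dnaja2, Cct8, Ppid, a cyclophilin that binds HSP90 (-0.34, adjusted p = 0.0383), Clpx, the mitochondrial ATP-driven unfoldase (-0.26, adjusted p = 0.0259), and the proteasome subunits Psma3 (-0.39, adjusted p = 0.0312) and Psma1 (-0.35, adjusted p = 0.0382). Ppid averaged 111 FPKM in HFD-F and 141 FPKM in HFD-C, with no overlap of the ranges. By list, the called genes were 1 of 20 J-domain genes, 1 of 26 co-chaperones, 1 of 18 mitochondrial chaperones and proteases, 1 of 8 TRiC subunits and 2 of 27 proteasome genes. These calls depended on the setting: 1 remained with no filter and 1 with upper quartile scaling, 3 with prefix as a random block, and 0 with prefix means or any GC setting. Without 1 library, 0 to 7 list genes were called, with 0 without HFD-C replicate 1, 4 or 6 or HFD-F replicate 3, 4 or 7, 1 without HFD-C replicate 2 or 9 or HFD-F replicate 6, and 2 without HFD-F replicate 5. No gene was called among 9 HSP70 and HSP110 genes, 6 small heat shock genes, 6 prefoldins, 4 heat shock factors and 19 chaperones of the endoplasmic reticulum. List medians lay between -0.18 (prefoldins) and 0.15 (immediate early genes), against 0.00 for all rows. The endoplasmic reticulum list had a median of -0.15, and its leading chaperone Hspa5 had -0.45 with an adjusted p of 0.168. Hsf2 (-0.24, adjusted p = 0.106) and Hsf1 (-0.01, adjusted p = 0.983), both heat shock factors, did not pass. Among genes tied to temperature and activity, neither Rbm3 (-0.33, adjusted p = 0.121) nor Cirbp (0.16, adjusted p = 0.670) passed, and no clock gene of 16 or immediate early gene of 15 was called.

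In CD-F against CD-C the same lists held 4 genes called higher and 32 called lower, against 4.54% and 8.88% of all rows. These 36 calls became 22 with the GC trend removed, 21 without the CD-C libraries with Alb, 17 with prefix means, 4 with the GC covariate and 5 with GC and length covariates. Those called lower included Chordc1, an HSP90 co-chaperone (-1.14, SE 0.177, adjusted p = 4.32e-05), with 10.3 FPKM in CD-F and 22 FPKM in CD-C. Ppid was lower as well (-0.56, adjusted p = 8.56e-05), with 96.9 FPKM in CD-F and 141 FPKM in CD-C. The small heat shock gene Hspb1 fell by 1.03 on the log2 scale (adjusted p = 0.00992), and the inducible HSP70 genes Hspa1b (-0.84, adjusted p = 0.0174) and Hspa1a (-0.67, adjusted p = 0.0204) were also lower. The last pair are near-identical copies, each on several rows, and their values are uncertain. No small heat shock, HSP70 or HSP110 gene of the lists was called with prefix means or without the CD-C libraries with Alb. No HSP70 or HSP110 gene of the lists was called with the GC covariate or with GC and length covariates either. Hsf2, a heat shock factor, was lower (-0.39, SE 0.0835, adjusted p = 0.00121), with 8.07 FPKM in CD-F and 10.7 FPKM in CD-C, while Hsf1 differed by -0.03 (adjusted p = 0.877). Further genes called lower were the J-domain genes Dnajc2 (-0.80, adjusted p = 5.95e-05) and Dnajb4 (-0.62, adjusted p = 0.000201), the mitochondrial protease Yme1l1 (-0.69, adjusted p = 0.000731), the prefoldin Vbp1 (-0.74, adjusted p = 7.72e-05) and the proteasome ATPase Psmc6 (-0.69, adjusted p = 0.000385). Of 19 endoplasmic reticulum chaperones 9 were called lower, with a list median of -0.35. Also called lower were 2 of 26 co-chaperones (list median -0.03), 4 of 20 J-domain genes (-0.05) and 2 of 18 mitochondrial chaperones and proteases (-0.003). So were 2 of 6 small heat shock genes (list median 0.04), 2 of 9 HSP70 and HSP110 genes (-0.14) and 5 of 27 proteasome genes (-0.15). TRiC had 3 of 8 called lower (list median -0.14) and the prefoldins 1 of 6 (-0.10). The heat shock factors had 1 of 4 (-0.05) and the clock genes 1 of 16 (0.08). The genes named here are those of smallest p and do not stand for their lists. Trap1, the mitochondrial HSP90, was called higher (0.18, adjusted p = 0.0259). So were the clock gene Cry2 (0.32, adjusted p = 0.00757) and the immediate early gene Egr1 (0.72, adjusted p = 0.0468). Fits without 1 library called 0 to 4 of the 15 immediate early genes. Cirbp, a cold-inducible RNA-binding protein, was called higher (0.50, SE 0.163, adjusted p = 0.0316), with 184 FPKM in CD-F and 124 FPKM in CD-C, and Rbm3 did not pass (-0.20, adjusted p = 0.291). The call of Cirbp was lost in 8 of 16 fits without 1 library (CD-F replicate 1, 2, 7 or 8, CD-C replicate 1, 2, 4 or 5), and also with no filter, with the compared groups alone, with prefix means, in every GC setting and without the CD-C libraries with Alb. These adjusted p-values are from limma over all rows, and this contrast was known when the lists were drawn up.

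Cell type markers were set beside the chaperone values. Summed neuronal markers ran from 4647 to 8023 FPKM in HFD-F and from 5997 to 7943 FPKM in HFD-C, with 0 of 5 called. Summed microglial markers ran from 987 to 1591 FPKM in HFD-F and from 742 to 1104 FPKM in HFD-C, with 0 of 5 called. Over all marker lists, medians in HFD-F against HFD-C ran from -0.30 (log2, dentate granule) to 0.70 (choroid plexus), with no marker called. Endothelial markers had 0.42, pyramidal cell markers -0.28 and oligodendrocyte markers -0.27. In CD-F against CD-C, 3 liver markers were lower, with the list's sum at most 1.52 FPKM in CD-F and 0.309 to 122 FPKM in CD-C. In that contrast 1 of 5 dentate granule markers was also lower, and 1 of 5 astrocyte and 1 of 5 microglial markers were higher. Summed microglial markers there ran from 892 to 1255 FPKM in CD-F and from 745 to 1327 FPKM in CD-C, and summed neuronal markers from 4982 to 8209 FPKM in CD-F and from 4934 to 7899 FPKM in CD-C. Dentate granule markers had the lowest list median in FFD-C against HFD-C, -0.80 (log2), with 0 of 5 called. Their values there ran from -0.85 to 0.09. Against FD-C their median in FFD-C was -0.64, again with 0 of 5 called. The part of these markers in the chaperone differences was not tested.

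The row of Dnaja1 also names Mir207. The annotated spans of Hspd1 (chr1:55077835-55088243, minus strand) and Hspe1 (chr1:55088132-55091307, plus strand; GENCODE M21, GRCm38) overlap by 112 bases, and whether strand was used in the counting is not given in the sources used here. Ptges3 spans chr10:128058954-128077272 (plus strand), Hsp90aa1 chr12:110690605-110702728 (minus strand) and Hsp90ab1 chr17:45567775-45573271 (minus strand). Dnaja1 spans chr4:40722150-40737149 (plus strand), and Hspa4l chr3:40744495-40796103 (plus strand).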

How the data were processed

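Total RNA of 49 hippocampi was sequenced with BGI-500 protocols, and the labels' protocols name a phenol-chloroform extraction. Per the submitters' processing notes, Trimmomatic 0.38, HISAT2 and StringTie 1.3.4d were used with GRCm38.p6. The deposited table holds FPKM values by the authors, one column per library. How strand and annotation were handled is not given in the sources used here, nor is any read total, so the depth is unknown and no interval for counting error is given.

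The members and all lists were chosen with earlier results of these data known. Rows averaging 0.5 FPKM or more entered limma 3.58.1 (R 4.3.3) as log2(FPKM + 0.5), in 1 model of all 49 libraries with group and XX or XY mark. Two-sided p-values were adjusted by Benjamini-Hochberg over 16029 rows. A log2 difference on this scale understates the change of low rows. Differences named beside p-values are log2. The model was tested on simulated data with independent noise and changes larger than those of the members. The simulated data held no GC trend and no shared prefix, so that test does not bear on either. Whether libraries of 1 group share a litter is not stated, and p-values measure the spread between these mice. Named genes from other lists were those of smallest p, up to 4 a direction among called ones. No library was left out. Alternatives covered the pseudocount, filter, scaling, groups in the model, title prefix, GC and length trends and leaving out each library. Gene spans are from GENCODE M21 and start windows from RefSeq.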

Additional observations from a re-analysis of the deposited data

Results flagged for a closer look

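In 4 of the 60 combinations of a member and a group, 1 library stood apart from the rest by Dixon's 95% criterion, which chance alone meets in about 1 in 20 groups. Hspa8 reached 93.9 FPKM in CD-F replicate 8, where the next CD-F library had 68.4 FPKM. Hspe1 reached 19.9 FPKM in the same library, with 10.3 FPKM in the next. That library also had the highest Hsp90ab1 value of all (903 FPKM), the lowest Hspa4l value (40.9 FPKM), a GC trend of 0.423 and a length trend of -0.524, the lowest of its group (Spearman's rho of the same deviations with transcript length). Hspe1 has the shortest transcript of the members, 964 bases. Hspe1 reached 17.8 FPKM in HFD-F replicate 8, where the next HFD-F library had 10.9 FPKM. The GC trend of replicate 8 was 0.256 and its length trend -0.410, again the lowest of the group. Hspa4l reached 97.4 FPKM in HFD-F replicate 1, where the next HFD-F library had 71.8 FPKM. The GC trend of replicate 1 was -0.193 and its length trend 0.314. The part of the GC and length trends in these values was not tested.

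A second row that names Hspa4l, not used above, was far from 0 in a few libraries only. Its highest value was 256.5 FPKM, in FFD-C. Values above 100 FPKM were found in 2 of 8 HFD-F, 3 of 8 FFD-C, 1 of 8 FD-C and 1 of 9 HFD-C libraries, and in none of the CD-F or CD-C libraries. Adding this row to the kept one turned the difference of Hspa4l in HFD-F against HFD-C to 0.09 (log2), and that in FFD-C against HFD-C to 0.24. The level of Hspa4l is therefore uncertain in those libraries.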

How the results depend on the processing

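Depth is unknown, and the spread between mice limits which differences could be seen. The 2 members called in HFD-F against HFD-C became 1 with no filter, 1 with upper quartile scaling, 4 with the compared groups alone in the model, and 0 with means per title prefix, with the GC trend removed, and with GC, or GC and length, trends as covariates (the last 2 chosen after seeing the data). The 268 rows called there became 140 (no filter), 162 (upper quartile), 167 (prefix as a random block), 0 (prefix means), 25 (GC trend removed), 4 (GC covariate) and 18 (GC and length). Leaving out 1 library gave 1 to 3 members and 72 to 372 rows, the lowest without HFD-F replicate 4. The rows also fell by more than 1.5 times without HFD-C replicate 1, 2, 4, 6 or 9 (102 to 138) and without HFD-F replicate 3, 6 or 7 (106 to 158). In CD-F against CD-C, 2151 rows became 1426 (compared groups alone), 881 (prefix means), 961 (GC trend removed), 1234 (without the CD-C libraries with Alb), 74 (GC covariate) and 147 (GC and length), and the members' median became -0.17 with GC and length. The members' median in HFD-F against HFD-C stayed between -0.22 and -0.10, fits without 1 library included. The count of 0 called members in FFD-C against HFD-C, FFD-C against FD-C and XX against XY was the same in every fit.

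Differences that changed sign were small in most cases (log2). In HFD-F against HFD-C these were Dnajb1 0.069 (prefix means), Hspa8 0.017 and Hspa4l 0.041 (GC trend removed), Hspa4l 0.093 (its rows summed), Hsp90aa1 0.066 and Hspa4l 0.15 (GC covariate), and Hsp90aa1 0.19 and Hspa4l 0.11 (GC and length). In FFD-C against HFD-C they were Hsph1 0.022, Dnaja1 0.040 and Ptges3 0.12 (prefix means), Dnaja1 0.044 and Ptges3 0.070 (GC trend removed), Ptges3 0.0067 (upper quartile), Hspa4l 0.24 (rows summed), Hsp90aa1 0.27, Hsp90ab1 -0.068, Dnaja1 0.11, Hspe1 -0.024 and Ptges3 0.091 (GC covariate), and Hsp90aa1 0.21, Hsp90ab1 -0.088, Hspa8 -0.032, Dnaja1 0.072, Hspe1 -0.12 and Ptges3 0.057 (GC and length). In FFD-C against FD-C they were Hspa8 -0.019 and Hspa4l -0.071 (GC trend removed), Hsp90ab1 0.020 and Hspa4l -0.12 (GC covariate), and Hsp90aa1 -0.026, Hspa8 -0.019 and Hspa4l -0.090 (GC and length). In XX against XY they were Hspa4l -0.017 (GC trend removed), Hspa4l -0.025, Hspd1 -0.016 and Hspe1 0.014 (GC covariate), and Hspa4l -0.016, Dnaja1 -0.0036 and Hspd1 -0.028 (GC and length). The cause was not tested. Without 1 library, Dnajb1 in HFD-F against HFD-C ran from -0.095 to 0.028. In FFD-C against HFD-C, Hsp90ab1 ran from -0.017 to 0.061, Hspe1 from -0.029 to 0.091 and Ptges3 from -0.067 to 0.038. In FFD-C against FD-C, Hspa8 ran from -0.042 to 0.080, Hspa4l from -0.030 to 0.11 and Hsph1 from -0.033 to 0.098, and in XX against XY, Hspe1 ran from -0.049 to 0.026. The labels give the groups no shared replicate numbers, and the title prefixes entered only as the random block and the prefix means given above.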
